A study of Zea mays with 18 samples.

Results

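Aleurone was compared with starchy endosperm in maize (Zea mays) kernels of the genotype R1-sc, over all gene models whose identifiers begin with Zm00001d. The comparison used 6 of the 18 libraries of the series, namely 3 of R1-sc aleurone and 3 of R1-sc starchy endosperm, taken 19 days after pollination from field-grown, self-pollinated plants of the inbred line W22. The count tables hold 44146 Zm00001d features among 46430 features in all. R1-g, which the series design calls the wild type, and r1-m3 were sampled in the same 2 compartments at the same age. They share the W22 background and serve here to show where R1-sc differs. Their libraries, except r1-m3 aleurone replicate 3, also entered the filter, the scaling and the estimate of the spread behind the edgeR calls in R1-sc. Cells of each compartment were collected by laser microdissection, and 5 ng of RNA was amplified to cDNA before sequencing. The labels call the replicates biological, and which kernels or plants went into each replicate is not given in the sources used here. The edgeR p-values below set each difference against the spread between libraries, estimated jointly over 17 libraries of R1-sc, R1-g and r1-m3. The groups share this estimate, although the spread differed between the R1-sc compartments, as given further on. The exact permutation p-values use the 6 R1-sc libraries alone.

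The aleurone is the outermost layer of the cereal endosperm. Its cells stay alive in the mature grain, store oil and protein, can accumulate anthocyanin pigment, and secrete enzymes during germination. The starchy endosperm inside it fills with starch and with zeins, the storage proteins of maize, and its cells die as the grain matures. The r1 locus encodes regulators of the basic helix-loop-helix family that switch on anthocyanin genes, and its alleles differ in where pigment forms.

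The reference table matched 0 of the 44146 identifiers, so no feature below has a name or a function, and the 11 lists of known aleurone, storage, pigment and transfer-cell genes drawn up for this comparison could not be applied. The compartment labels were therefore not checked against known markers. They were checked only against features that the other genotypes called between the same compartments, given further on. Counts in bulk tissue do not separate fewer cells of a type from less RNA per cell.

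Counts on annotated features reached 15.4 M to 16.5 M reads in the R1-sc aleurone libraries and 12.5 M to 15.3 M reads in the starchy endosperm libraries. Of these, Zm00001d features took 67.7%, 57.0% and 66.5% in aleurone replicates 1 to 3 and 76.1%, 71.8% and 69.1% in the starchy endosperm. The groups did not overlap, at 63.7 ± 5.87% and 72.3 ± 3.54% (SD, n = 3 each), and a two-sided exact permutation test gave p = 0.1, the smallest that 3 against 3 libraries allow. As a share of the whole tables, reads given to no feature included, Zm00001d counts were 20.5%, 14.7% and 17.1% in the aleurone replicates and 22.5%, 18.9% and 17.2% in those of the starchy endosperm, where the groups overlapped and the difference was -2.12 percentage points against -8.58. Mitochondrial ribosomal RNA took 17.5% to 25.7% of the aleurone counts and 8.55% to 11.1% of the starchy endosperm counts. Its part in the lower Zm00001d share was not tested.

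Counts were spread over far more features in the aleurone than in the starchy endosperm. The number of Zm00001d features needed to hold 50% of all Zm00001d counts was 778, 726 and 614 in the aleurone libraries and 13, 8 and 12 in the starchy endosperm libraries. The 20 features with the most counts in each library took 11.7%, 12.1% and 14.97% in aleurone replicates 1 to 3, while they took 53.7%, 60.9% and 54.8% in those of the starchy endosperm. No library of either compartment came near the other group. The exact permutation p was 0.1 for both measures, again the smallest possible, and 0.133 after adjustment over the 4 measures of composition compared.

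**Figure D1:**
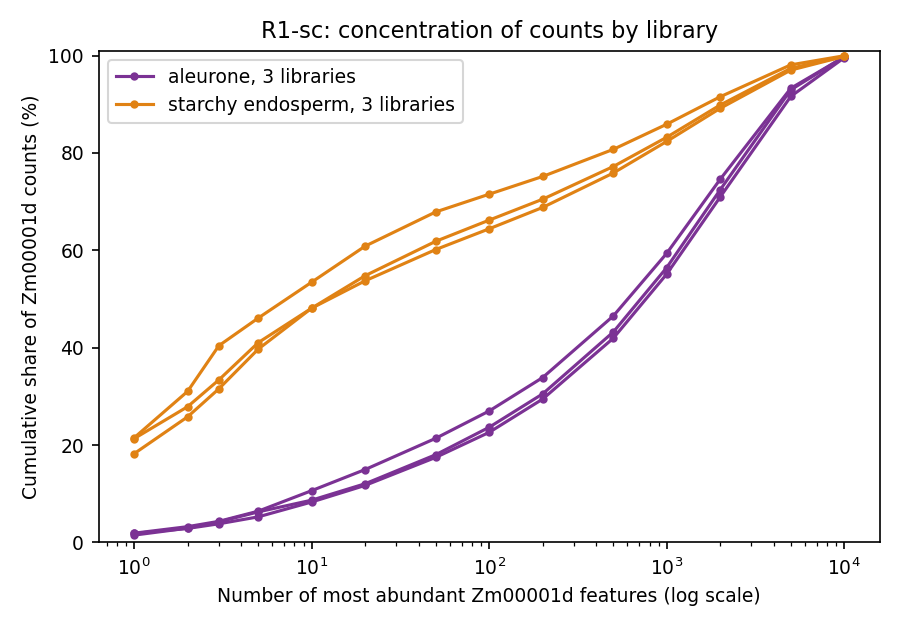
Cumulative share of Zm00001d counts (vertical axis, in percent) held by a growing number of the most abundant features (horizontal axis, log scale), with a line for each of the 6 R1-sc libraries. At 20 features the starchy endosperm lines lie between 53.7% and 60.9% and the aleurone lines between 11.7% and 14.97%.

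A single feature, Zm00001d020592, stood highest in the starchy endosperm. Its level was 193901, 225907 and 180625 CPM (counts-per-million on library totals scaled by TMM factors) in starchy endosperm replicates 1 to 3, and 3459, 6165 and 5494.5 CPM in the aleurone replicates. It was thus also among the 3 highest features of the aleurone, with a mean of 5039.7 ± 1409 CPM there against 200144 ± 23278 CPM in the starchy endosperm (SD, n = 3 each), a 39.7-fold difference. By count, and with no correction for transcript length, the feature with the most counts took 18.2% to 21.5% of Zm00001d counts in a starchy endosperm library and 1.502% to 1.90% in an aleurone library.

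The next 2 features of the starchy endosperm had the same shape. Zm00001d005793 stood at 45297, 98557 and 74955 CPM in the starchy endosperm and at 1588, 1923 and 2621 CPM in the aleurone, and was 35.7-fold higher in the former. Zm00001d035760 stood at 50077, 100172 and 57042 CPM against 4737, 5175 and 5215 CPM, a 13.7-fold difference. In both, starchy endosperm replicate 2 was the highest library.

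The highest feature of the aleurone, Zm00001d024302, was nearly absent from the starchy endosperm. It stood at 8623, 7131.5 and 9745 CPM in the aleurone replicates and at 2.20, 0 and 3.38 CPM in the starchy endosperm replicates, where 59 reads were counted over all 3 libraries. Its mean was 4567-fold higher in the aleurone. No starchy endosperm library thus came above 3.38 CPM for this feature, while the 3 highest features of the starchy endosperm stood at 1588 CPM or more in every aleurone library.

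**Figure D2:**
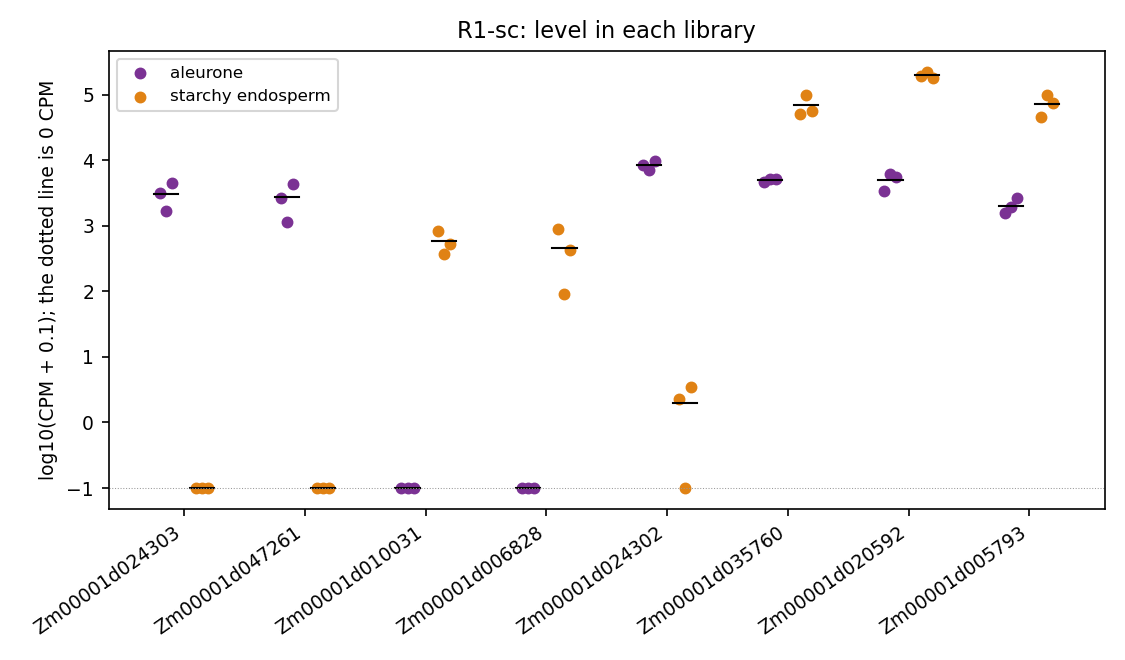
Level of 8 Zm00001d features in each R1-sc library, as log10(CPM + 0.1), with points for libraries, a bar for the group mean and a dotted line at 0 CPM. From the left, 4 features with the largest fitted differences are at 0 in the opposite compartment, and Zm00001d035760, Zm00001d020592 and Zm00001d005793 are high in the starchy endosperm and present in the aleurone.

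The comparison across all features asks which of them separate the compartments in this genotype. A total of 18722 Zm00001d features passed the filter on low counts and were tested, which is 42.4% of them. The other 25424 held 0.141% of the Zm00001d counts in the R1-sc libraries, and 23353 Zm00001d features had no count in any R1-sc library. Of those tested, 1906 were called different at an adjusted p under 0.05 by edgeR's quasi-likelihood test, 1101 higher and 805 lower in the aleurone. Over all 19111 features tested, organelle and noncoding ones included, 10.2% were called, 5.83% higher and 4.33% lower. As 18722 of the 19111 are Zm00001d features, this share had to lie near theirs. At an unadjusted p under 0.05 there were 5784.

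The balance of directions depended on the use of TMM factors and on single libraries. TMM factors were 1.20 to 1.46 in the aleurone and 0.683 to 0.837 in the starchy endosperm, and library totals without them gave 1673 higher and 485 lower. That scaling moved the median log2 difference of all features tested from 0.55 to 1.37. Of the calls, 57.8% were higher in the aleurone with TMM factors, 77.5% without them and 57.5% to 61.7% under other scalings. Fewer libraries gave fewer calls. Without starchy endosperm replicate 1, 2 or 3 they numbered 1077, 1148 and 1078, and without any aleurone replicate in turn 1567 to 1621. The share of calls higher in the aleurone was 53.4%, 50.7% and 54.4% in the former and 59.0% to 60.0% in the latter.

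**Figure D3:**
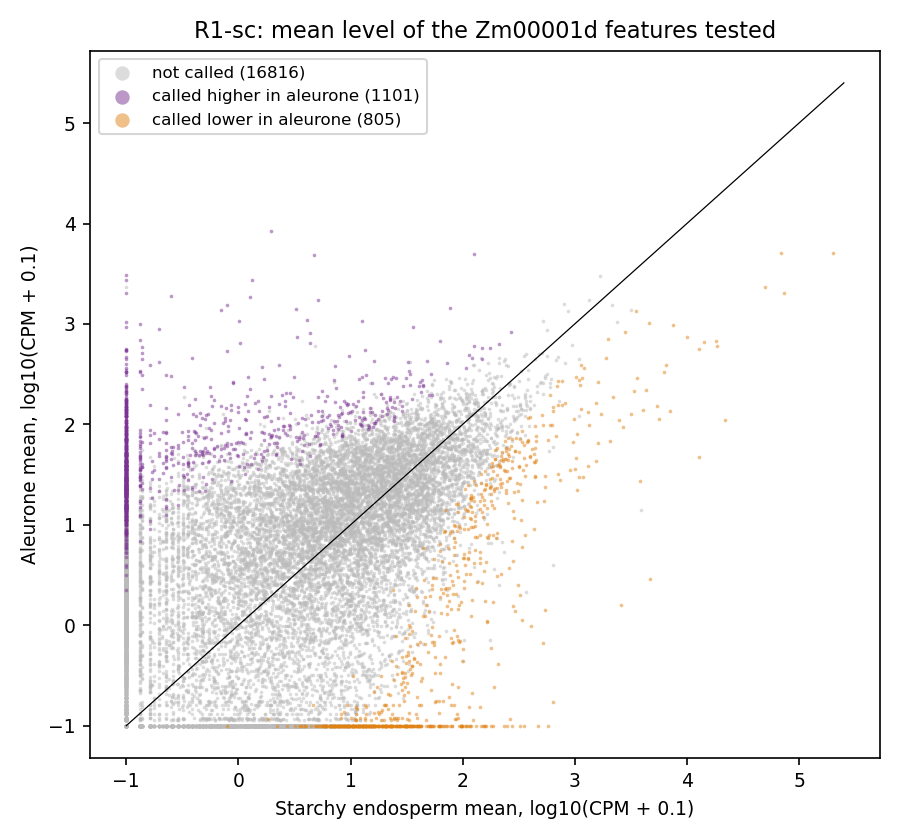
Mean level of each tested Zm00001d feature in R1-sc starchy endosperm (horizontal) and aleurone (vertical), both as log10(CPM + 0.1), with the 1101 features called higher and the 805 called lower in the aleurone in colour and a line at equal levels. Many called features lie on the left or lower edge, where 1 compartment has 0 counts.

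The called features held much of the RNA counted. Those called higher took 29.1% of the Zm00001d CPM of the R1-sc aleurone and 0.425% of that of the starchy endosperm, and those called lower took 7.68% and 71.3%.

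Many of the called features were counted in a single compartment. Of the 1101 called higher in the aleurone, 637 (57.9%) had 0 counts in all starchy endosperm libraries. Of the 805 called lower, 324 (40.2%) had 0 counts in all aleurone libraries. Such calls made up 3.34% and 1.7% of all features tested. These shares count the calls themselves, and how many features without a call had 0 counts in a compartment is not given here. The fitted fold change of a feature with 0 counts in a compartment depends on the prior count. With groups at 0 set to a floor of 3 counts over the group, the median difference was 226-fold for the features called higher and 139-fold for those called lower. The 464 and 481 called features with counts in both compartments differed by a median of 82.6-fold and 24.8-fold, with the smallest at 3.00-fold and 2.63-fold.

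Calls were made at moderate levels as well as high ones. In the compartment where it was higher, a called feature had a median of 48.9 CPM for the aleurone, with a range of 2.13 to 8499.7 CPM, and of 53.4 CPM for the starchy endosperm, with a range of 0.692 to 200144 CPM. The features were divided into 4 bins of equal size by mean CPM over the 6 libraries. The lowest bin held 1 call higher and 3 lower in the aleurone, the second 60 and 133, the third 419 and 235, and the highest 621 and 434. Calls of the lower direction outnumbered those of the higher direction in the second bin (2.84% against 1.28% of 4680 features), and the order was the other way round in the third (5.02% against 8.95%) and the highest (9.27% against 13.3%). The median standard error of the log2 difference fell from 2.88 in the lowest bin to 1.13 in the highest. Over all tested Zm00001d features, the 95% interval of the log2 difference reached a median of 4.67 units either way.

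**Figure D4:**
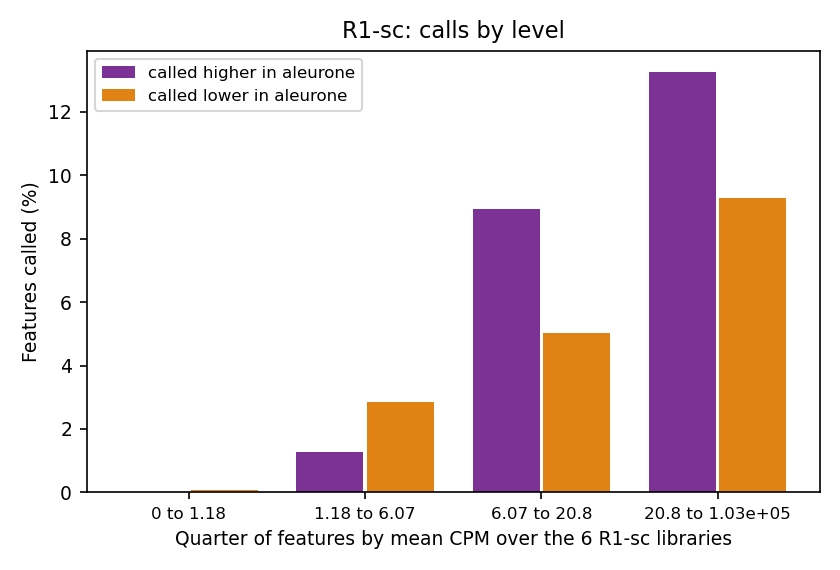
Share of tested Zm00001d features called higher or lower in the aleurone (bars, percent) in each of 4 bins of equal size by mean CPM over the 6 R1-sc libraries. In the highest bin 13.3% were called higher and 9.27% lower.

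The features with the largest fitted differences were at 0 in the opposite compartment. Zm00001d024303 stood at 3130.0, 1702 and 4457 CPM in the aleurone replicates and had 0 counts in the starchy endosperm. It was at least 30957-fold higher in the aleurone (floor of 3 counts over the group; edgeR adjusted p = 2.63e-10). Zm00001d047261 stood at 2672, 1163 and 4374 CPM and likewise had no reads in starchy endosperm libraries. It was at least 27356-fold higher in the aleurone (edgeR adjusted p = 0.00316). Replicate 2 was the lowest aleurone library for both features, and replicate 3 the highest.

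In the other direction, Zm00001d010031 had 0 counts in the aleurone and stood at 836, 376 and 532 CPM in the starchy endosperm replicates. It was at least 12088-fold lower in the aleurone (edgeR adjusted p = 2.63e-10). Zm00001d006828 also had 0 counts in the aleurone and stood at 885, 89.8 and 423 CPM in the other compartment, and was at least 9689-fold lower in the aleurone (edgeR adjusted p = 1.92e-08). Its starchy endosperm libraries differed by nearly as much as their mean, at 466 ± 399.6 CPM (SD, n = 3). The 4 features remained called, in the same direction, under each of the 16 alternatives run, with edgeR or DESeq2 adjusted p up to 0.0135.

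The same 4 features can be read in the other genotypes. Zm00001d010031 and Zm00001d006828 had 0 counts in the aleurone of R1-g and r1-m3 as well. In the starchy endosperm Zm00001d010031 stood at 401 ± 219 CPM in R1-g and 305 ± 53.9 CPM in r1-m3 (SD, n = 3 each), and Zm00001d006828 at 160.3 ± 93.9 and 112 ± 17.9 CPM. Zm00001d024303 and Zm00001d047261 had 0 counts in r1-m3 starchy endosperm, and 103 and 24 counts in that of R1-g.

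A stricter view of compartment-specific counts used no test. A total of 268 Zm00001d features reached 10 CPM in every R1-sc aleurone library with 0 counts in the starchy endosperm, and 107 reached 10 CPM in every starchy endosperm library with 0 counts in the aleurone. Of these, 264 and 107 were among the calls, where 5.83% and 4.33% of all features tested were called in those directions. The features were chosen on the same libraries, so a call was nearly fixed in advance and lends the calls no support. In R1-g and r1-m3, 102 of the 268 had 0 counts in the starchy endosperm of both genotypes too, and 205 had a mean of at least 10 CPM in the aleurone of both. Of the 107, 49 had 0 counts in the aleurone of both, and 88 had at least 10 CPM in the starchy endosperm of both.

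A further group was counted throughout. A total of 1466 Zm00001d features reached 10 CPM in all 6 R1-sc libraries, and 47 of them were called higher and 152 lower in the aleurone, where 5.83% and 4.33% of all features tested were called. For the rest of them the test does not show equal levels. The 95% interval of the log2 difference lay within 1 unit either way for only 4 of the 1466, and it reached a median of 1.54 log2 units either way.

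The spread between replicates was wide, and wider in the aleurone. Of 10000 Zm00001d features that reached 10 CPM in an R1-sc aleurone library, 2403 (24.0%) had no read in at least 1 other R1-sc aleurone library. In the starchy endosperm this was 900 of 7675 (11.7%). Features at 10 CPM or more in 1 library and 0 in both others numbered 231, 216 and 227 for aleurone replicates 1 to 3. For the starchy endosperm replicates they numbered 60, 77 and 47. No library of a compartment stood apart from its group in this count. Features at 10 CPM in all 3 libraries numbered 2968 for the aleurone and 3355 for the other compartment. The biological coefficient of variation, estimated within each compartment over the tested Zm00001d features, was 1.78 for aleurone libraries and 1.34 for starchy endosperm libraries. At an equal depth of 8.77 M Zm00001d reads, 13708, 12949 and 13092 Zm00001d features were detected in the aleurone replicates and 13161, 11331 and 12902 in the starchy endosperm replicates, and the ranges overlapped (two-sided exact permutation p = 0.4, n = 3 each).

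Where the libraries of the compartments did not overlap, a call did not always follow. Over all features tested, 27.7% had libraries that did not overlap in either direction. All 3 aleurone libraries lay above all 3 starchy endosperm libraries for 2666 Zm00001d features and for 14.3% of all features tested. The reverse held for 2481 Zm00001d features and for 13.3% of all features tested. Among the calls, 1019 of the 1101 higher and 788 of the 805 lower had libraries that did not overlap. The other 82 and 17 were called although a library of each compartment crossed.

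The compartment differences of R1-sc were then read against those of the other genotypes, whose libraries are separate but were fitted together with those of R1-sc. R1-g and r1-m3 both called 399 Zm00001d features higher in the aleurone and 247 lower, where 2.12% and 1.33% of all features tested were so called. The R1-sc levels were not compared in choosing these features, but the R1-sc libraries entered the choice through the shared filter, scaling and estimate of the spread. In R1-sc, 397 of the 399 had the same sign, 365 (91.5%) were called, and for 383 all aleurone libraries lay above all starchy endosperm libraries. Of the 247, 246 had the same sign, 221 (89.5%) were called, and 240 had libraries that did not overlap. The R1-sc compartments thus differed in the direction of their labels for all but 2 and 1 of these features.

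The most abundant of these features were also read as a share of each library. The 20 with the highest mean in R1-g and r1-m3 starchy endosperm took 52.6%, 60.3% and 54.5% of Zm00001d counts in R1-sc starchy endosperm replicates 1 to 3. In the R1-sc aleurone they took 3.99% to 4.47%. All 20 were called lower there, as were 89.5% of the 247 they came from and 4.33% of all features tested. They took 3.50% to 4.26% in R1-g aleurone and 3.60% and 3.87% in the 2 r1-m3 aleurone libraries used, so the range in R1-sc overlapped that in R1-g. The 20 with the highest mean in R1-g and r1-m3 aleurone took 7.66% to 8.92% of Zm00001d counts in the R1-sc aleurone and 0.0480% to 0.170% in the R1-sc starchy endosperm. Of them 19 were called higher, as were 91.5% of the 399 they came from and 5.83% of all features tested. They took 6.30% to 7.25% in R1-g aleurone, below every R1-sc aleurone library, and 6.23% and 7.74% in r1-m3 aleurone, which overlapped R1-sc. That difference between genotypes was not tested. Whether starchy endosperm RNA in the aleurone captures has a part in the other results was not tested.

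Read the other way, the R1-sc calls were looked up in the other genotypes, where 7.26% of all features tested were called in either direction in R1-g and 4.6% in r1-m3. Of the 1101 called higher in the aleurone of R1-sc, 516 (46.9%) were called higher in R1-g and 460 (41.8%) in r1-m3, where 3.52% and 3.03% of all features were called higher. Of the 805 called lower, 423 (52.5%) were called lower in R1-g and 242 (30.1%) in r1-m3, where 3.74% and 1.58% of all features were. Conversely, 78.9% of the 654 features called higher in R1-g and 61.6% of the 687 called lower were called the same way in R1-sc. For r1-m3, with 2 aleurone libraries, these shares were 80.3% of 573 and 83.4% of 290. The sign in R1-g was the same for 97.1% of the features called higher and 95.3% of those called lower in R1-sc, and over all Zm00001d features tested 54.0% were higher and 43.3% lower in R1-g.

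By edgeR, calls made in R1-sc alone were not shown to be particular to it. There were 851 Zm00001d features called in R1-sc and in neither other genotype, 490 higher and 361 lower, and 739 of them had the same sign in both others. The test of the difference itself called 0 of the 851 against R1-g and 0 against r1-m3 by edgeR. At an unadjusted p under 0.05 it was 338 and 279, and DESeq2 called 162 and 135, so the tools differed. How many of the 851 DESeq2 called against both genotypes is not given here.

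**Figure D5:**
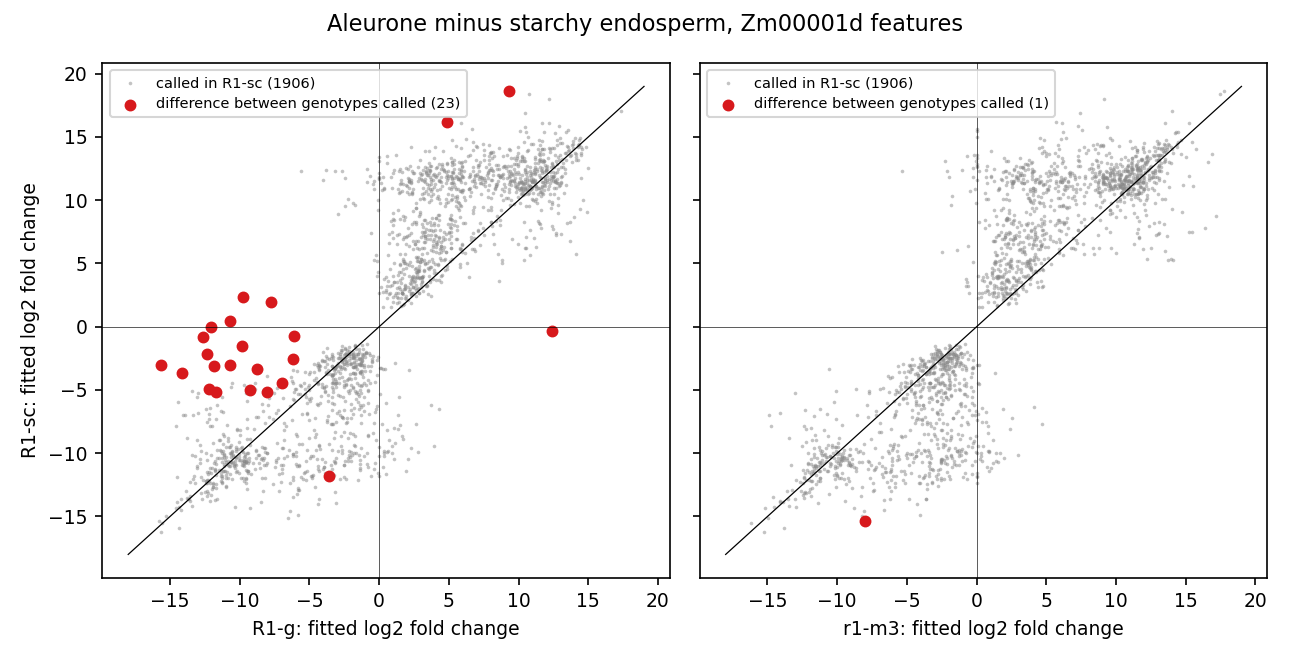
Fitted log2 fold change of aleurone over starchy endosperm in R1-sc (vertical) against R1-g (left) and r1-m3 (right) for the 1906 Zm00001d features called in R1-sc (grey), overlaid with all features whose difference between genotypes was called, whether or not they were called in R1-sc (red, 23 against R1-g and 1 against r1-m3), and a line at equal values. Of the red points on the left, 19 lie above the line at negative values of R1-g.

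The test of the difference between genotypes called 23 Zm00001d features against R1-g, where 0.12% of all features tested were called by edgeR. For 21 of them the aleurone minus starchy endosperm difference was more positive in R1-sc (0.11% of all features tested), and for 2 it was more negative (0.0105%). This split depended on the tool and the filter: DESeq2 called 480 more positive and 331 more negative, and edgeR without a filter on low counts 133 and 45. Of the 21, 19 were called lower in the aleurone of R1-g. Of the same 21, 11 were called lower in the aleurone of R1-sc, 2 were called higher, and 8 were not called. The median of this log2 difference over all features tested was 0.29. All 21 had a higher mean in R1-sc aleurone than in R1-g aleurone, with medians of 69.1 and 0.101 CPM, and 13 had at most 13 reads in all R1-g aleurone libraries. In the starchy endosperm the means lay on either side, 11 of 21 above R1-g, with medians of 223 and 169 CPM. In r1-m3 aleurone the median of the 21 was 14.5 CPM, and 19 of them lay between the other genotypes. The 21 were chosen because R1-sc and R1-g differ. That choice favours both this position and the higher R1-sc aleurone means. The one with the highest R1-sc aleurone mean was Zm00001d024303, described above, which had 0 counts in R1-sc starchy endosperm and 103 in that of R1-g. The number of calls was 15 without R1-sc starchy endosperm replicate 1 and 38 without R1-sc aleurone replicate 2.

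Among the 21, Zm00001d036608 had the largest difference. It stood at 9.26, 38.2 and 97.5 CPM in R1-sc aleurone and at 234, 546 and 419.6 CPM in R1-sc starchy endosperm. In R1-g it had 0 counts in the aleurone and stood at 472, 225 and 510.0 CPM in the starchy endosperm. The starchy endosperm groups of the genotypes overlapped and the aleurone groups did not (log2 difference between genotypes 12.63, SE 1.33, edgeR adjusted p = 1.15e-05). The r1-m3 aleurone libraries stood at 26.1 and 4.86 CPM.

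Zm00001d025750 was called lower in the aleurone of R1-g and was not called in R1-sc (edgeR adjusted p = 0.226). It stood at 3.37, 94.1 and 41.9 CPM in R1-sc aleurone and at 1.24, 22.1 and 4.13 CPM in R1-sc starchy endosperm, where the groups overlapped. In R1-g it had 3 counts over all aleurone libraries and stood at 44.4, 48.9 and 48.6 CPM in the starchy endosperm. Here both compartments contributed, since all R1-sc starchy endosperm libraries lay below those of R1-g (log2 difference between genotypes 12.10, edgeR adjusted p = 0.0130). The call was lost without R1-g aleurone replicate 2 (adjusted p = 0.0538), or without R1-sc starchy endosperm replicate 1 (0.0832) or 3 (0.1) in edgeR. In r1-m3 the feature stood at 0.801 and 3.91 CPM in the aleurone and at 48.2, 27.2 and 14.4 CPM in the starchy endosperm.

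Zm00001d005793, the feature with the second highest mean in R1-sc starchy endosperm, was also among the 21. In R1-g it stood at 284, 359.6 and 410.2 CPM in the aleurone and at 99879, 85686 and 86085 CPM in the starchy endosperm. All R1-sc aleurone libraries, at 1588 to 2621 CPM, lay above all R1-g aleurone libraries, and the starchy endosperm groups overlapped (log2 difference between genotypes 2.85, SE 0.381, edgeR adjusted p = 0.000174). The r1-m3 aleurone libraries, at 1584 and 1011 CPM, also lay above all those of R1-g, and below all those of R1-sc. In r1-m3 starchy endosperm this feature stood at 79989, 55352 and 71190 CPM, which overlapped R1-sc and lay below R1-g. The feature with the highest mean, Zm00001d020592, was not called in the test against R1-g. Its R1-g aleurone libraries, at 1870.2, 4187 and 5008 CPM, overlapped those of R1-sc.

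In the other direction, Zm00001d026147 was counted in both R1-sc compartments, and in R1-g in the aleurone only. It stood at 373, 189 and 31.5 CPM in R1-sc aleurone and at 235, 273 and 259 CPM in R1-sc starchy endosperm. In R1-g it stood at 53.7, 6.84 and 65.3 CPM in the aleurone and had 0 counts in the starchy endosperm, where r1-m3 stood at 303, 292 and 423 CPM. In r1-m3 aleurone it stood at 270 and 161 CPM, within the range of R1-sc aleurone. The compartments overlapped in R1-sc, and R1-g aleurone was at least 483-fold above its starchy endosperm (log2 difference between genotypes -12.78, SE 1.51, edgeR adjusted p = 5.35e-05). The call held under each of the 21 alternatives run for it, with adjusted p up to 0.000721 by edgeR or DESeq2.

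Zm00001d002087 had 1 count in R1-sc aleurone and stood at 115, 16.5 and 128 CPM in R1-sc starchy endosperm. In R1-g it stood at 13.7, 7.95 and 0.411 CPM in the aleurone and at 75.8, 76.2 and 115 CPM in the starchy endosperm. In r1-m3 aleurone it stood at 6.49 and 14.3 CPM, which overlapped R1-g and lay above R1-sc. In r1-m3 starchy endosperm it stood at 79.5, 46.8 and 108 CPM. Its difference between R1-sc and R1-g (log2 -8.24, edgeR adjusted p = 0.0346) was lost under 11 of 21 alternatives, with adjusted p up to 0.183 by edgeR.

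Against r1-m3 the same test called 1 Zm00001d feature, Zm00001d045391, where 0.00523% of all features tested were called by edgeR. It had 0 counts in R1-sc aleurone and stood at 304, 388 and 277 CPM in R1-sc starchy endosperm, at least 6714-fold lower in the aleurone. In r1-m3 it stood at 1.72 and 2.54 CPM in the 2 aleurone libraries used and at 658, 442 and 558 CPM in the starchy endosperm, a 259-fold difference. The call thus rests on 99 reads in r1-m3 aleurone (log2 difference between genotypes -7.34, SE 0.949, edgeR adjusted p = 0.00107), and R1-g aleurone had 0 counts as well. The feature was called under each of the 20 alternatives run. Other features joined it under several of them. DESeq2 called 697 against r1-m3, and edgeR without a filter on low counts called 93. There were 6 calls without R1-sc aleurone replicate 1, 5 without R1-sc aleurone or starchy endosperm replicate 2, 4 without r1-m3 aleurone replicate 1, and 3 without r1-m3 aleurone or starchy endosperm replicate 2. At an unadjusted p under 0.05, 1597 Zm00001d features differed against r1-m3 and 1958 against R1-g.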

How the data were processed

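Per the submitters' processing notes, which list names without roles, the build was B73 RefGen_v4 and the tools were HISAT2, HTSeq 0.11.2, SAMtools, Trimmomatic 0.39, DESeq2 and FastQC. Settings and the strand option are not given in the sources used here, so overlapping features cannot be told apart. The deposited values are raw read counts per feature, 1 table per library. The 5 closing rows of reads given to no feature took 69.7% to 75.0% of the R1-sc tables, and reads aligned to several places alone 45.5% to 55.0%, so members of near-identical families are uncertain.

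The test was edgeR's (version 4.0.16, R 4.3.3), after filterByExpr and TMM, with 6 group means over 17 libraries, robust quasi-likelihood F tests, and Benjamini-Hochberg adjustment over all 19111 features tested, called under 0.05. The library of r1-m3 aleurone replicate 3 was left out, because it held reads for 490 of the 490 features found at 200 or more reads in either of replicates 1 and 2 and at 0 in its partner. The corresponding shares were 51.9% to 80.5% in the R1-sc libraries. The SE is the log2 difference divided by the square root of F. Floors cover counting error only, since copies of a molecule made by amplification may be counted as separate reads. The features and lists were chosen with earlier results of these data known. Named features were the 2 with the largest called differences in each direction (libraries not overlapping, at least 10 CPM), the same in each test between genotypes (at least 10 CPM, libraries free to overlap), and the 3 highest of each compartment. The scripts were tested on simulated data. Alternatives included DESeq2 1.42.0, other scalings and filters, a replicate block, and leaving out each library.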

Additional observations from a re-analysis of the deposited data

Results flagged for a closer look

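Between R1-sc and R1-g, the compartment difference of 23 Zm00001d features differed by the test of the difference itself, and between R1-sc and r1-m3 that of 1. Those described above for the largest differences in each direction are listed here because that test called them. The log2 difference between genotypes (R1-sc minus R1-g) was 12.63 for Zm00001d036608, 12.10 for Zm00001d025750, -12.78 for Zm00001d026147 and -8.24 for Zm00001d002087. Against r1-m3 it was -7.34 for Zm00001d045391. Each of these values comes from a contrast in which a group had at most 3 reads, so its size depends on the prior count. Zm00001d024303 (log2 9.32) and Zm00001d005793 (log2 2.85), described above for their levels, were also called against R1-g. For Zm00001d024303, R1-sc starchy endosperm had 0 reads and that of R1-g 103, so the size of this value depends on the prior count too. For Zm00001d005793 the fewest reads in a group compared were 22554, in R1-g aleurone.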

How the results depend on the processing

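The numbers of calls given here are Zm00001d features at an adjusted p under 0.05. DESeq2 called 4699 between the R1-sc compartments (2816 higher, 1883 lower in the aleurone), 811 in the test against R1-g and 697 in that against r1-m3; 1861 of the 1906 edgeR calls were among the 4699 in the same direction. Without a filter on low counts the tests against R1-g and r1-m3 gave 178 and 93. Leaving the TMM factors out gave 1673 higher and 485 lower. Other scalings and filters, the 6 R1-sc libraries alone (1410) and all 18 libraries (2536) kept the number of compartment calls within 1.5 times. The features called were not all the same. Of the 1906, other scalings and filters called 1792 to 1904 again in the same direction. Library totals without TMM factors called 1585 of them again, a replicate block 1334 and the 6 R1-sc libraries alone 1287. Without an R1-sc starchy endosperm replicate this was 1027 to 1103, and without an R1-sc aleurone replicate 1369 to 1406. The cause of these shifts was not tested. Leaving out a library of the groups compared gave 1077 to 1621 compartment calls (575 to 972 higher, 492 to 650 lower), 15 to 38 against R1-g and 1 to 6 against r1-m3; where 1 r1-m3 aleurone library was left, it was assumed to vary like the other groups. The deviations of same-numbered libraries had correlations of -0.000500 to 0.0228 in R1-sc, and 4 of its 6 libraries correlated best with their own number. With the wide spread between replicates, these values cannot decide whether the numbers pair libraries. Replicate 1 had the highest Zm00001d share of feature counts in both R1-sc compartments (67.7% in aleurone, 76.1% in starchy endosperm). A replicate block gave 1584, 33 and 8 calls. As a share of table totals, Zm00001d counts differed by -2.12 percentage points between aleurone and starchy endosperm, against -8.58 as a share of feature counts. Leaving out a library moved this difference between -10.6 and -5.21, that of the 20 highest features between -44.9 and -41.4, the number of features holding 50% between 659 and 741, and the number detected between 218 and 1133. Reads of low features limit the rest: the lowest of 4 bins by level held 1 call higher and 3 lower.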
